A study of Mus musculus with 12 samples.

Results

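The insulin-like growth factor (IGF) family of the mouse heart was described through 9 genes chosen by name: the ligands Igf1 and Igf2, the receptor Igf1r, and the binding proteins Igfbp2, Igfbp3, Igfbp4, Igfbp5, Igfbp6 and Igfbp7. They are 9 of the 16246 genes listed in any of the 4 deposited tables. The family was picked because Igfbp2 had one of the largest differences between pressure-overloaded and sham-operated hearts on both diets. Those differences are therefore given as a description, without p-values, and the counts of members past a threshold are set beside the share of all genes with nothing read from them. The diet comparisons and the diet by surgery interaction were tested, but they share libraries with the contrasts that led to the choice.

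PolyA RNA was sequenced from 12 heart samples of male C57Bl/6J mice, 12 weeks old, with 3 samples in each of 4 groups. Mice ate a BCAA-control diet, which held all essential amino acids, or a BCAA-free diet that lacked leucine, isoleucine and valine, the amino acids with a branched chain (BCAA). The diet began 4 days before sham surgery or transverse aortic constriction (TAC), in which a narrowed aorta makes the left ventricle pump against a raised pressure, and hearts were taken 2 weeks after surgery. The sham and TAC groups of the control diet and those of the BCAA-free diet are named by diet and surgery (control diet sham, BCAA-free TAC and so on). None carried a genetic change in the labels. Nothing in the labels tells single hearts from pooled ones, so the p-values reflect the spread among the 3 samples of a group, part of which may be technical.

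IGF1 and IGF2 are secreted peptides that bind the receptor tyrosine kinase IGF1R and signal through insulin receptor substrates, PI3K and AKT toward growth and survival. The IGF binding proteins hold the ligands in the extracellular space, lengthen their life and limit or deliver them to the receptor, and proteases such as PAPP-A release the ligand again. In the heart, IGF1 signalling through PI3K is known for physiological growth of cardiomyocytes, while much of the local IGF1 and several binding proteins are made by non-myocytes.

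Igfbp2 lies on chromosome 1 at 72824503 to 72852474 of GRCm38, on the plus strand, and Igfbp5 lies beside it at 72857932 to 72874884 on the minus strand. The gene bodies face each other tail to tail with 5457 bases between them. Igf1 lies at chr10:87858265-87937042 and Igf1r at chr7:67952827-68233668, both on the plus strand. Igf2 is at chr7:142650766-142666816 and Igfbp7 at chr5:77349240-77408041, both on the minus strand. Igfbp3 is at chr11:7206086-7213923 on the minus strand, Igfbp4 at chr11:99041244-99054392 on the plus strand and Igfbp6 at chr15:102144362-102149511 on the plus strand. In the annotation, 62.8% of the Igf2 exon bases are shared with the gene model Gm49394 on the same strand, and 7.03% of the Igfbp7 exon bases overlap Polr2b on the opposite strand. How the authors' counting treated shared bases, and whether it used strand, is not given in the sources used here, so the values of Igf2 and Igfbp7 are uncertain to that extent.

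All 9 genes matched the RefSeq promoter table of GRCm38.p6, with 13 entries in all, each holding 250 bases before and 50 after an annotated start. Promoters are shown for 2 sets of genes. Igfbp2 and Igfbp7 were higher after TAC on both diets. Igf1, Igf1r and Igfbp5 had a diet by surgery interaction that passed the threshold, though only the Igf1r call held whichever library was left out. The promoters are written 5′ to 3′ on the strand of the gene, and capitals mark matches on either strand to 4 motifs. The GC box was searched as GGGCGG and the TATA box as TATAAA. The CCAAT box was searched by its name and the E-box as CACGTG, and no match overlapped another. Windows are chr1:72824230-72824529 for Igfbp2 (plus strand), chr5:77407996-77408295 for Igfbp7 (minus), chr10:87860861-87861160 for Igf1 (plus), chr7:67952007-67952306 for Igf1r (plus) and chr1:72874816-72875115 for Igfbp5 (minus).
Igfbp2: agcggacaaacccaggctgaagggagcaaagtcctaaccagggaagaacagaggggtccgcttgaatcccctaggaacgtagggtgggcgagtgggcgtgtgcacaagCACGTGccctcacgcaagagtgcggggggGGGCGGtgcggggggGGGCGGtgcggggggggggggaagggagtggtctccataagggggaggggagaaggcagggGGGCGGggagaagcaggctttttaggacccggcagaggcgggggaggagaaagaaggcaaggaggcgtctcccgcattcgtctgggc
Igfbp7: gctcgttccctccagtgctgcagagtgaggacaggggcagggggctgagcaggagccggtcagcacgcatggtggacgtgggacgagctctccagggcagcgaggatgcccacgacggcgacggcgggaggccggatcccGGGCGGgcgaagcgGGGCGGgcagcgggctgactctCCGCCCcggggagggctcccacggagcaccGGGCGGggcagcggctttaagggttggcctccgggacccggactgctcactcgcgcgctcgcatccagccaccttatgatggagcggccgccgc
Igf1: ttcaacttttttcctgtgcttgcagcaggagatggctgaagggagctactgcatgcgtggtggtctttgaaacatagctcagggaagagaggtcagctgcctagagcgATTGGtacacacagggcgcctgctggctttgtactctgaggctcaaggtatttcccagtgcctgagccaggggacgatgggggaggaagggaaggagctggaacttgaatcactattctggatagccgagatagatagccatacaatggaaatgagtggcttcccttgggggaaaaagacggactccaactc
Igf1r: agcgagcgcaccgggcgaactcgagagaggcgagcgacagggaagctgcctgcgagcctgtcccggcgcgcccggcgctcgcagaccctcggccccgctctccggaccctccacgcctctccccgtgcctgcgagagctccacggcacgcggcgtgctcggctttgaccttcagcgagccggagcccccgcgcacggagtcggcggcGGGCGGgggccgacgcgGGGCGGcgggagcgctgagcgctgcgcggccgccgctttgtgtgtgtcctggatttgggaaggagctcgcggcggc
Igfbp5: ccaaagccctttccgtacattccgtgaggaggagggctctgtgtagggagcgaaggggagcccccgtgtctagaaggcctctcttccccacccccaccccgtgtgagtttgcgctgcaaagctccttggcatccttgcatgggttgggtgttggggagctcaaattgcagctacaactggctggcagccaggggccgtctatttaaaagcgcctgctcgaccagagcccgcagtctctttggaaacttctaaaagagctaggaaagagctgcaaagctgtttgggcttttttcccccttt
The Igfbp2 window held 3 GC boxes and an E-box, the Igfbp7 window 4 GC boxes and the Igf1r window 2 GC boxes. The Igf1 window held 1 CCAAT match, and the Igfbp5 window held none of these letters. A further RefSeq entry of Igfbp2, at chr1:72825137-72825436 on the plus strand and inside the gene, held none of the 4 motifs. Of the 32851 promoters in the table, 35.66% held the GC box, 37.41% the CCAAT box, 13.62% the TATA box and 7.15% the E-box. Among the other members, a TATA box occurred in Igfbp4 and Igfbp6, and the E-box occurred in no further entry. A match is only a description of these letters.

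The libraries held 13849179 (BCAA-free sham replicate 2) to 52066912 (control diet TAC replicate 3) reads, recovered from the deposited normalized values. Markers of cardiomyocytes were abundant in all groups. Myh6 had a mean of 932310 normalized counts in control diet TAC hearts. Its log2 difference from control diet sham hearts, -0.26 ± 0.18, was not called. Across genes, the deviation of a library from the mean of all libraries correlated with GC content at Spearman's rho of 0.20 to 0.40 in the BCAA-free TAC libraries and of -0.22 to 0.038 in the other 9. With transcript length the same deviation correlated at -0.41 in control diet sham replicate 3 and at -0.36 to -0.12 in the BCAA-free TAC libraries, against 0.054 to 0.24 in the other 8. An alternative fit removed such trends over GC content and length from every library, and several member results that it changed are named beside them.

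Per length of exon, Igfbp7 was the most abundant family member and Igfbp2 the least abundant in sham hearts. In control diet sham hearts, Igfbp7 stood at 78.1 ± 16.3 RPKM (mean ± SD, n = 3), that is, reads per kilobase of exon scaled to the library's total of recovered reads, followed by Igfbp4 at 21.0 ± 1.86 and Igfbp5 at 17.2 ± 4.41. Igfbp6 had 10.9 ± 2.02 RPKM, Igfbp3 7.31 ± 0.992 and Igf2 4.30 ± 1.52. The receptor Igf1r stood at 1.41 ± 0.222, Igf1 at 0.930 ± 0.195 and Igfbp2 at 0.0433 ± 0.0263. The ranges over replicates overlapped between Igfbp4 and Igfbp5, between Igfbp5 and Igfbp6, but not between Igfbp6 and Igfbp3, Igfbp3 and Igf2, Igf2 and Igf1r, Igf1r and Igf1, or Igf1 and Igfbp2. Igfbp7 lay above all others. The ligand Igf2 was thus listed at a higher level than Igf1 in these adult hearts, with the shared exon bases of Igf2 as a limit on its value.

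**Figure D1:**
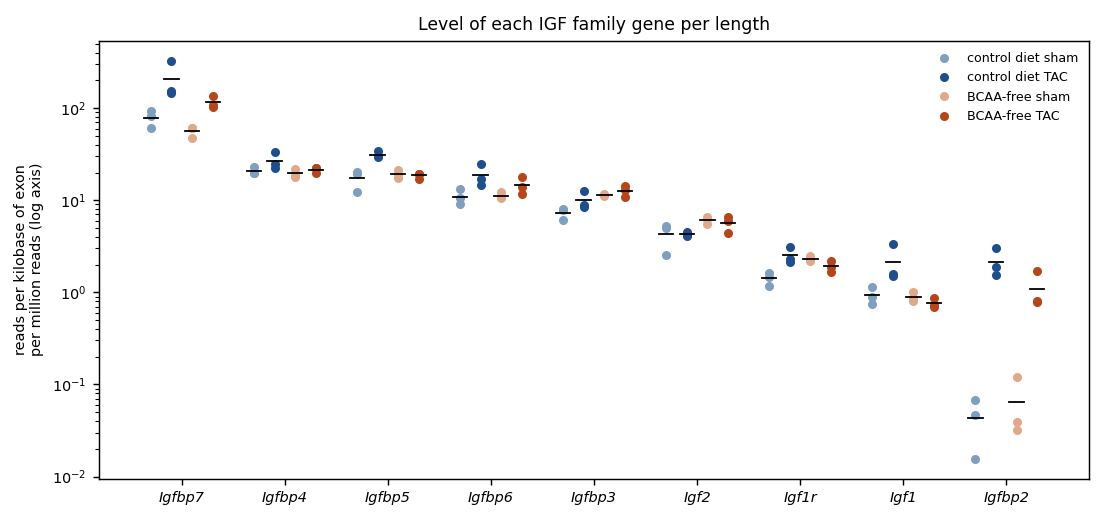
RPKM (log axis) of each gene in the 12 libraries; points are libraries, coloured by group, and black lines are group means. Igfbp2 lies lowest in both sham groups (mean 0.0433 on the control diet) and reaches 2.16 in control diet TAC hearts, close to Igf1 in the same hearts.

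In control diet TAC hearts the mean level of Igfbp2 was 2.16 ± 0.787 RPKM and that of Igf1 was 2.16 ± 1.06, so the binding protein that was lowest in sham hearts stood at the level of the ligand. In BCAA-free TAC hearts Igfbp2 had 1.09 ± 0.526 RPKM and Igf1 0.768 ± 0.0964, and their ranges overlapped. Igfbp7 remained highest in every group, at 210 ± 102 RPKM in control diet TAC, 56.1 ± 7.36 in BCAA-free sham and 116 ± 18.0 in BCAA-free TAC hearts.

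After TAC, Igfbp2 was the member with the largest difference from sham on both diets, and Igfbp7 was the other member with separate groups on both. On the control diet, Igf1, Igf1r and Igfbp5 were also higher in all TAC libraries than in all sham libraries. On the BCAA-free diet these 3 genes overlapped between TAC and sham. Values below are normalized read counts within the table of each diet, and log2 differences are TAC minus sham on the log2(value + 1) scale with their SE.

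Igfbp2 encodes a binding protein with a preference for IGF2 that is abundant in fetal tissues. On the control diet it had normalized counts of 0.870, 3.87 and 2.75 in the sham libraries, from 1, 3 and 2 reads, and of 99.0, 151 and 81.9 in the TAC libraries. With the BCAA-free diet the sham libraries had 7.80, 2.60 and 2.12 and the TAC libraries 52.3, 51.8 and 114. Every TAC library lay above every sham library on both diets. Summed reads were 6 in control diet sham against 380 in control diet TAC, a ratio of rates of 45.8. They were 15 and 237 on the BCAA-free diet, a ratio of 15.4. On the log2 scale the differences were 5.06 ± 0.42 and 3.89 ± 0.46. The low sham levels put the gene above the filter of a mean value of 10 only through its TAC libraries, so it could enter the comparison only by being high after TAC.

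The log2 difference of Igfbp2 was as small as 3.24 and 2.49 with a pseudocount of 10, because the added constant weighs on the low sham values. Leaving out each library in turn gave 4.66 to 5.35 on the control diet and 3.52 to 4.36 on the BCAA-free diet.

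Igfbp7 encodes a secreted protein of the vessel wall and matrix that binds IGFs only weakly. Its counts on the control diet were 2998, 2244 and 3572 in sham and 5373, 10620 and 5040 in TAC hearts. BCAA-free hearts had 2553, 2632 and 2037 in sham and 4522, 4585 and 6003 in TAC hearts. Groups did not overlap on either diet, and the log2 differences were 1.19 ± 0.29 and 1.06 ± 0.13. Over the alternative fits the BCAA-free difference was as low as 0.82. Control diet TAC replicate 2 stood highest, and without it the control diet difference was 0.85.

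**Figure D2:**
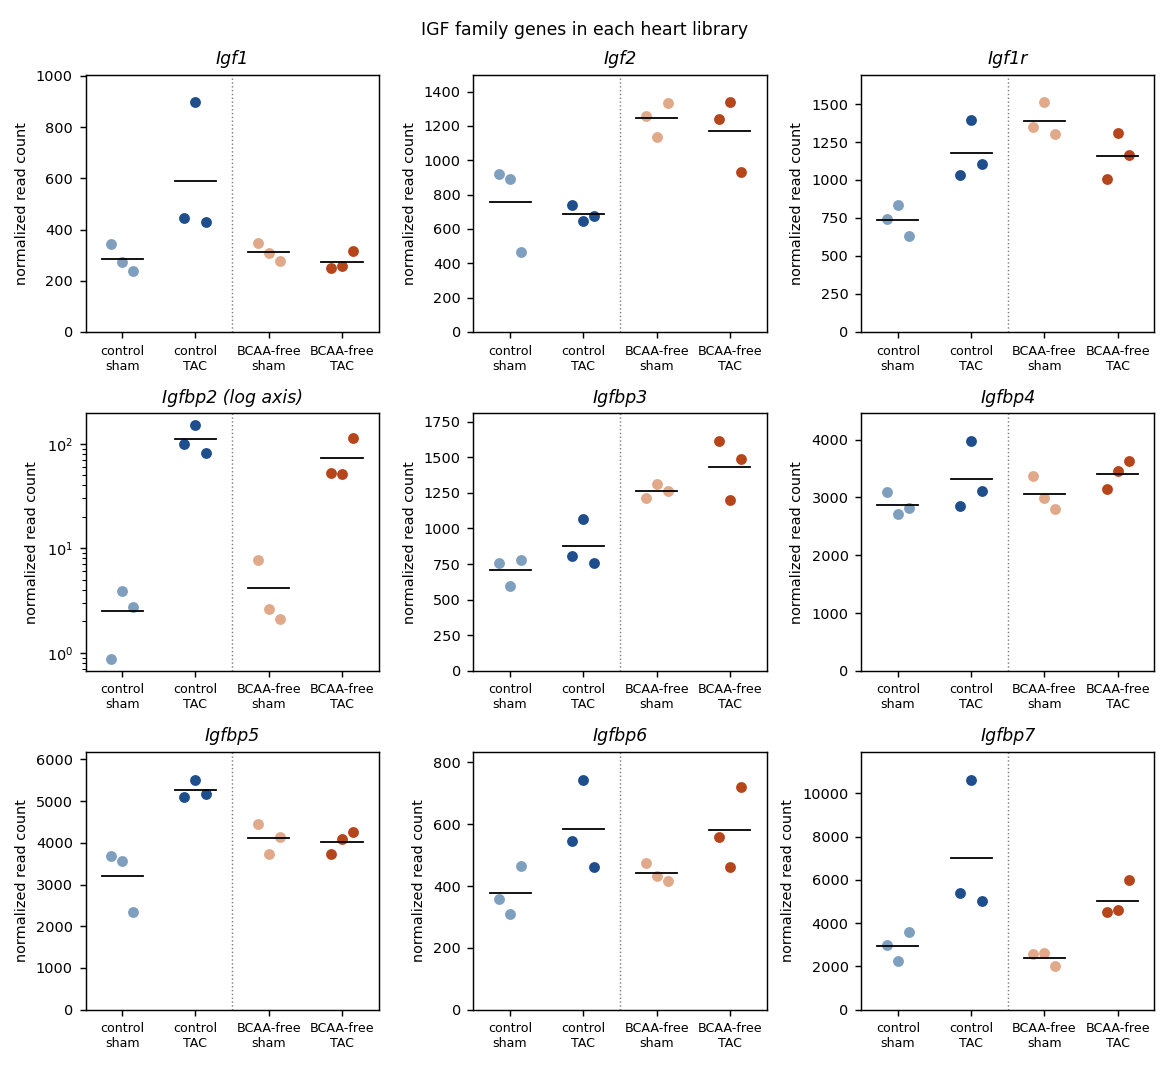
Normalized read counts (linear axes from 0, except the log axis of Igfbp2) of the 9 genes in each library; points are replicates 1 to 3 from left to right, black lines are means, and the dotted line parts the tables of the diets, which were scaled separately. Igfbp2 and Igfbp7 are higher in all TAC than in all sham libraries of each diet, whereas Igf1, Igf1r and Igfbp5 are so only on the left side.

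Among the ligands, Igf1 had counts of 342, 273 and 239 in control diet sham and of 445, 898 and 428 in control diet TAC hearts. TAC libraries were all higher, with replicate 2 at about the sum of the others, and the log2 difference was 0.98 ± 0.27, or 0.63 without that library. On the BCAA-free diet Igf1 had 349, 307 and 279 in sham and 249, 256 and 316 in TAC hearts, which overlapped, with a log2 difference of -0.19 ± 0.13. This small difference was 0.11 once GC content and length trends were removed.

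Igf2, the ligand best known from fetal growth, did not separate the surgeries. Its counts were 922, 888 and 468 in control diet sham and 737, 649 and 673 in control diet TAC hearts. BCAA-free sham hearts had 1259, 1135 and 1336, and BCAA-free TAC hearts 1239, 1338 and 930. The log2 differences were -0.084 ± 0.23 and -0.10 ± 0.13, and their sign changed when single libraries were left out (-0.40 to 0.088 and -0.21 to 0.054).

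The receptor gene Igf1r had counts of 741, 834 and 632 in control diet sham and of 1036, 1397 and 1103 in control diet TAC hearts, a log2 difference of 0.68 ± 0.15 with no overlap. It had, on the BCAA-free diet, 1347, 1513 and 1302 in sham and 1005, 1310 and 1162 in TAC hearts. There the groups overlapped, with TAC replicate 2 above the lowest sham library, and the log2 difference was -0.26 ± 0.10. It was -0.095 with the GC and length trends removed.

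Igfbp5, a binding protein with affinity for the extracellular matrix, had counts of 3680, 3568 and 2342 in control diet sham and of 5109, 5509 and 5170 in control diet TAC hearts. BCAA-free hearts had 4458, 3733 and 4132 in sham and 3721, 4095 and 4259 in TAC hearts. The control diet groups did not overlap, with a log2 difference of 0.75 ± 0.17, while the BCAA-free groups overlapped nearly fully, with -0.028 ± 0.084. Control diet sham replicate 3 was the lowest library, and the difference was 0.54 without it.

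The remaining binding proteins overlapped between TAC and sham on both diets. Igfbp6, which prefers IGF2, had counts of 311 to 466 in control diet sham and of 463 to 744 in control diet TAC hearts, and of 415 to 476 and 462 to 719 in the BCAA-free groups. TAC libraries tended upward on both diets, each time with 1 TAC library inside the sham range. The gene had log2 differences of 0.62 ± 0.20 on the control and 0.37 ± 0.14 on the BCAA-free diet. Over the alternative fits its BCAA-free difference was as low as 0.097. Igfbp3, the main carrier of IGFs in serum, had 0.29 ± 0.16 and 0.17 ± 0.10, and Igfbp4, a largely inhibitory binding protein, had 0.19 ± 0.14 and 0.16 ± 0.086. Without control diet TAC replicate 2, the control diet differences of Igfbp3 and Igfbp4 were 0.15 and 0.054, and without BCAA-free TAC replicate 3 the BCAA-free difference of Igfbp6 was 0.21.

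On the control diet 3 of the 9 members (Igf1r, Igfbp2 and Igfbp5) passed an adjusted p of 0.05 in the fit over all genes, all of them higher, beside 4.04% of all genes called (2.95% higher and 1.09% lower). Without overlap between TAC and sham were 5 members, all higher, beside 35.2% of all genes (17.8% higher and 17.4% lower). On the BCAA-free diet 2 of 9 (Igfbp2 and Igfbp7) passed, both higher, beside 6.23% (3.34% higher and 2.89% lower). The same 2 were the ones without overlap, beside 29.5% (14.6% higher and 15% lower). Nothing is read from these counts, because the family was chosen on these contrasts. The median log2 difference of the members was 0.68 and 0.16, and that of all genes tested was -0.0047 and 0.0014.

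Control diet TAC replicate 2 was the highest of its group for 8 of the 9 members, against 39.9% of all genes. BCAA-free TAC replicate 3 was the highest of its group for 6 of 9, against 31.6% of all genes. In control diet TAC replicate 2 the summed level of 8 fibroblast markers was 108409, against 76471 and 77747 in the other TAC libraries and 62280 to 71433 in control diet sham hearts. Of these markers 3 of 8 rose after TAC on the control diet (Col1a1, Col1a2 and Lum). Among all genes 2.95% were called higher and 1.09% lower in that comparison. Over the 6 listed markers of epicardium and mesothelium the sum was 468 to 663 in control diet TAC and 249 to 428 in control diet sham hearts, with none of 6 called. Of the smooth muscle and pericyte markers 2 of 8 rose on the control diet (Tagln and Cnn1), with a sum of 38788 to 38991 after TAC against 29725 to 36578 in sham hearts. The macrophage marker Csf1r rose, 1 of 8, and the cardiomyocyte marker Tnni3 fell, 1 of 6, with a median log2 difference of -0.36 over the cardiomyocyte markers. After TAC on the BCAA-free diet, Pi16 rose and Pdgfra fell among 8 fibroblast markers, and C1qa rose among 8 macrophage markers. Tek fell among 8 endothelial markers, and Rgs5 and Abcc9 fell among 8 smooth muscle and pericyte markers. The median log2 differences of these lists were 0.26, 0.19, -0.0063 and 0.12 in the same order, so the last was opposite in sign to Rgs5 and Abcc9. Of all genes 3.34% were called higher and 2.89% lower there. The sum of 5 atrial markers was 11122 to 22808 against 5414 to 12303 in BCAA-free sham hearts, with none called. In bulk tissue, fewer cells of a type and less RNA per cell cannot be told apart, and the part of these cell types in the results was not tested.

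The diet was then compared among TAC hearts, a contrast that the choice of the family did not use. Igf1 and Igfbp5 were lower, and Igf2 and Igfbp3 higher, on the BCAA-free than on the control diet. Thus 2 of 9 members rose and 2 of 9 fell, in a comparison in which 34.2% of all genes were called, 16.5% higher and 17.7% lower, so that 4 of 9 is a share near the background. Without overlap between the diets were 1 higher and 2 lower members, beside 50.8% of all genes (25.2% higher and 25.6% lower). The median log2 difference of the members was -0.25, against 0.00026 for all genes tested.

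Igf1 had counts of 545, 1091 and 521 in control diet TAC and of 258, 266 and 328 in BCAA-free TAC hearts. All BCAA-free libraries were lower, and the mean of the control diet was 2.53 times that of the BCAA-free diet. The log2 difference, BCAA-free minus control, was -1.26 ± 0.28 (limma, adjusted p = 0.0141). It was -0.91 without control diet TAC replicate 2 and still called. With GC content and length trends removed it was -0.92 and did not pass (limma, adjusted p = 0.0574).

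Igfbp5 had counts of 6252, 6696 and 6297 in control diet TAC and of 3856, 4252 and 4415 in BCAA-free TAC hearts. The groups were widely apart, and the log2 difference was -0.62 ± 0.081 (limma, adjusted p = 0.00147). This call held under all 10 alternatives and with each of 6 libraries left out, with values of -0.75 to -0.43 over the alternatives.

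Igf2 moved the other way, from 902, 789 and 819 in control diet TAC to 1284, 1389 and 964 in BCAA-free TAC hearts. The groups did not overlap, though BCAA-free replicate 3 lay close to the control range, and the log2 difference was 0.52 ± 0.13 (limma, adjusted p = 0.0171). Igfbp3 had 988, 1293 and 919 in control diet TAC and 1673, 1244 and 1540 in BCAA-free TAC hearts. Control diet replicate 2 lay above the lowest BCAA-free library, and the log2 difference was 0.48 ± 0.15 (limma, adjusted p = 0.0367). Both calls were lost with scaling to library totals, and over the alternatives the adjusted p by limma reached 0.0985 for Igf2 and 0.122 for Igfbp3. Of the 6 fits that left out a library, 3 lost the call of Igf2 (without control diet TAC replicate 3 or BCAA-free TAC replicate 1 or 2) and 4 that of Igfbp3 (without control diet TAC replicate 1 or 3 or BCAA-free TAC replicate 1 or 3).

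Igfbp2 had counts of 121, 183 and 99.8 in control diet TAC and of 54.2, 53.8 and 118 in BCAA-free TAC hearts. The ranges overlapped through BCAA-free TAC replicate 3, and the log2 difference of -0.88 ± 0.34 did not pass (limma, adjusted p = 0.0787). Without that library it was -1.26 and called, as it was with all libraries by DESeq2 and with GC and length trends removed. Igfbp7 had 6576, 12908 and 6138 against 4686, 4760 and 6223, with a log2 difference of -0.64 ± 0.30 (limma, adjusted p = 0.144). Igf1r, Igfbp4 and Igfbp6 had log2 differences of -0.25 ± 0.13, -0.18 ± 0.12 and -0.24 ± 0.21, with adjusted p of 0.166, 0.274 and 0.396 by limma. The Igf1r value was 0.049 with GC and length trends removed. Without control diet TAC replicate 2, the differences were -0.30 for Igfbp7, -0.13 for Igf1r, -0.044 for Igfbp4 and -0.053 for Igfbp6.

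Cell type markers moved in the same comparison, in which 16.5% of all genes were called higher and 17.7% lower. Of the fibroblast markers 7 of 8 fell on the BCAA-free diet, with a sum of 72108 to 82931 against 93585 to 131763, and of the macrophage markers 7 of 8 fell, with 6878 to 7962 against 10359 to 12299. Of the endothelial markers 4 of 8 fell and 1 rose, and of the cardiomyocyte markers 4 of 6 rose. Of the atrial markers 2 of 5 rose (Myl7 and Sln), with a sum of 11525 to 23644 against 8412 to 11625. Among 8 smooth muscle and pericyte markers Myh11 rose and Rgs5 fell. Of 9 epicardial and mesothelial markers only Wt1 was called, and it fell, while the median log2 difference of that list was 0.92. The sum of that list overlapped between the diets, with 453 to 1118 against 585 to 838. The 5 adipocyte markers tested had a median log2 difference of 1.38 with none called. None of the markers in these lists was at 0 in all libraries of a group. Their part in the differences of Igf1, Igfbp5, Igf2 and Igfbp3 was not tested.

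In sham hearts, Igf1r was higher on the BCAA-free diet and was the single called member of the 8 that could be tested. Of all genes 0.624% were called there, 0.25% higher and 0.375% lower. Igf1r had counts of 717, 808 and 605 on the control and of 1106, 1242 and 1069 on the BCAA-free diet. The groups lay apart, with a log2 difference of 0.69 ± 0.13 (limma, adjusted p = 0.0422). The call was lost at a mean value of at least 100 (limma, adjusted p = 0.0504) and in 4 of the 6 fits without a library (values of 0.58 to 0.79), namely without control diet sham replicate 1 or without any 1 of the BCAA-free sham replicates.

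Igfbp3 had counts of 733, 577 and 744 on the control diet and of 999, 1077 and 1038 on the BCAA-free diet in sham hearts. The groups did not overlap, and the log2 difference of 0.61 ± 0.12 missed the threshold (limma, adjusted p = 0.0509). It passed under 5 of 10 alternatives, among them the removal of GC and length trends. Igf2 had 891, 860 and 448 against 1034, 932 and 1097, also without overlap, with 0.54 ± 0.24 (limma, adjusted p = 0.296), or 0.22 without control diet sham replicate 3. Igfbp7 had 2897, 2173 and 3420 against 2096, 2161 and 1673, and the log2 difference was -0.50 ± 0.16 (limma, adjusted p = 0.170). These groups lay apart too, so 3 members were higher and 1 lower without overlap, beside 23% of all genes (11.7% higher and 11.3% lower). The Igfbp7 difference was -0.68 and called without control diet sham replicate 2.

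Igf1, Igfbp4, Igfbp5 and Igfbp6 overlapped between diets in sham hearts. Their log2 differences were -0.092 ± 0.16, -0.15 ± 0.11, 0.16 ± 0.17 and 0.0065 ± 0.15. The 95% interval for Igf1 ran from -0.45 to 0.27 and that for Igfbp5 from -0.21 to 0.52, so differences of that size were not resolved. Igfbp2 is not analysed here for this contrast. Over the 8 tested members the median was 0.081, and over all genes -0.00045. In the same comparison 1 of 8 fibroblast markers fell and 1 of 8 smooth muscle and pericyte markers rose, with list medians of -0.43 and 0.28. That stood beside 0.25% of all genes called higher and 0.375% lower. No macrophage or adipocyte marker was called, with medians of -0.59 over 8 and 1.01 over 4 tested. The part of these cell types in the member results was not tested.

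**Figure D3:**
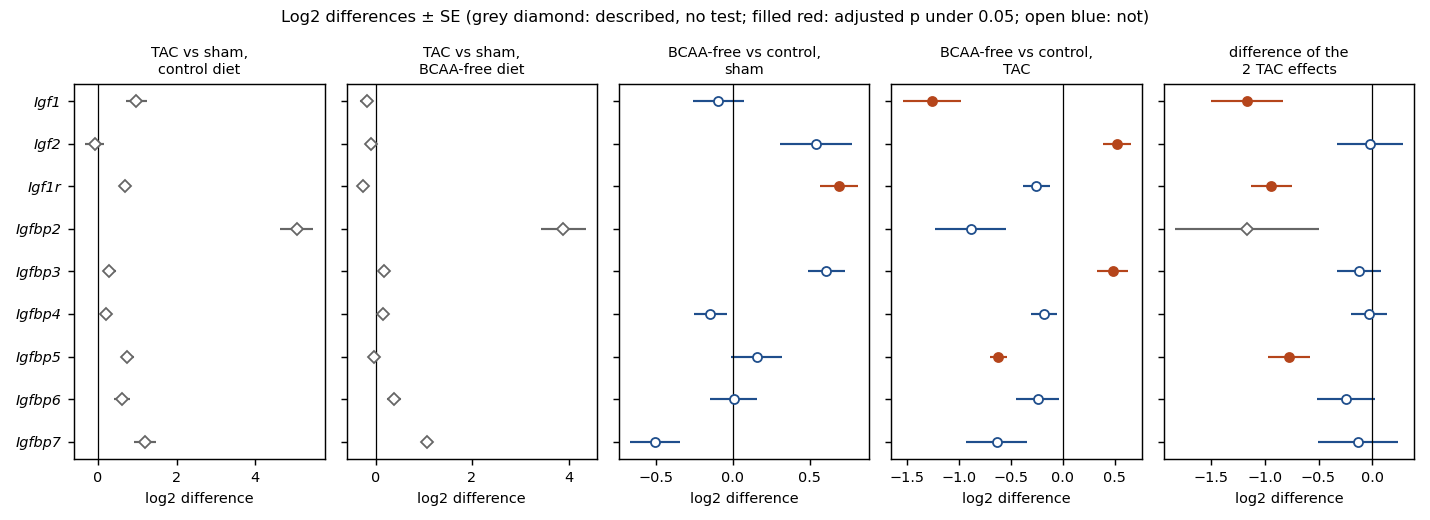
Log2 differences ± SE in 5 contrasts, each panel with its own axis, for the 9 genes, or for 8 in the diet panel of sham hearts, where Igfbp2 has no value; grey diamonds are described without a test, filled red circles passed an adjusted p of 0.05 and open blue circles did not. Igf1 and Igfbp5 are below 0 in the diet panel of TAC hearts and in the panel of the difference between the TAC effects, while Igf1r is above 0 in sham hearts and below 0 in the last panel.

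Whether the TAC difference depended on the diet was tested as an interaction over the 12 libraries, as the TAC minus sham difference on the BCAA-free diet minus that on the control diet. It was negative for Igf1, Igf1r and Igfbp5, the 3 members that passed among the 8 tested, while 8.65% of all genes were called, 3.73% in that direction and 4.92% in the other. Igf1r had -0.94 ± 0.19 (limma, adjusted p = 0.0167), made up of 0.68 on the control and -0.26 on the BCAA-free diet. Igfbp5 had -0.78 ± 0.20 (limma, adjusted p = 0.0331) and Igf1 -1.16 ± 0.33 (limma, adjusted p = 0.0474). The choice of the family used the TAC contrasts from which this difference is built, so these tests are not independent of it.

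The Igf1r call held under all 9 alternatives and in all 12 fits that left out a library, with values of -1.11 to -0.63 and -1.04 to -0.81. Over those 12 fits the adjusted p by limma reached 0.04997, just under the threshold. Igfbp5 lost its call with GC and length trends removed (-0.55; limma, adjusted p = 0.0716) and in 8 of the 12 fits without a library. Igf1 lost its call with edgeR, with GC and length trends removed and in 9 of the 12 fits without a library, and was -0.82 without control diet TAC replicate 2. Each of the 6 BCAA-free libraries and control diet TAC replicate 2, when left out, ended both of these calls, as did control diet TAC replicate 3 for Igfbp5 and control diet sham replicates 2 and 3 for Igf1.

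For Igfbp2 the difference between the diets was -1.16 ± 0.67 and is given without a test; single libraries left out moved it from -1.54 to -0.70. The other 5 members did not pass. Igfbp6 had -0.24 ± 0.27, Igfbp7 -0.13 ± 0.37, Igfbp3 -0.12 ± 0.20, Igfbp4 -0.032 ± 0.17 and Igf2 -0.019 ± 0.31. For Igfbp7 the 95% interval ran from -0.94 to 0.68, so a diet dependence of either sign within that range was not resolved. The median over the 9 members was -0.24, against -0.030 for all genes. In the same fit the fibroblast markers Dcn and Pdgfra and the pericyte marker Rgs5 had negative interactions of -0.52, -0.71 and -0.69 that passed, with 2 of 8 fibroblast and 1 of 8 smooth muscle and pericyte markers called. The cardiomyocyte markers Myl2 and Tnni3, 2 of 6, passed with 0.86 and 0.99, beside a median of 0.40 over that list. Among all genes 4.92% had positive and 3.73% negative interactions that passed. The atrial markers had a median of 1.44 with none of 5 called. Their part in the member results was not tested.

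Genes around the family were followed in 5 lists: proteases of the binding proteins with their inhibitors and ternary complex, receptors and adaptors, the PI3K and AKT pathway, the growth hormone axis, and H19 with the Igf2 mRNA binding proteins. In TAC hearts, 10 of 45 genes tested from these lists rose and 15 fell with the BCAA-free diet, beside 16.5% of all genes called higher and 17.7% lower (34.2% in all). In sham hearts none of the 45 tested passed by limma, with 9 at an unadjusted p under 0.05, and edgeR and DESeq2 called 0 and 2 of them. In the interaction 3 of the 45 were called positive and 3 negative, beside 4.92% and 3.73% of all genes (8.65% in all).

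Among proteases and their partners, 3 of 8 tested rose and 2 fell with the diet in TAC hearts, beside the same 16.5% and 17.7%. Adam12, a metalloprotease that can cleave IGFBP3 and IGFBP5, had mean counts of 106 on the control and 12.6 on the BCAA-free diet, a log2 difference of -3.06 ± 0.43 (limma, adjusted p = 0.00200). Stc1 and Stc2 encode stanniocalcins that inhibit PAPP-A, and they moved in opposite directions, by -0.99 ± 0.24 and 0.56 ± 0.12. The Stc1 call was lost without BCAA-free TAC replicate 1 or 2. Htra1, a secreted serine protease, rose by 0.47 ± 0.088. It also had a positive interaction of 0.66 (limma, adjusted p = 0.0154). That call held under all 9 alternatives and in all 12 fits without a library, where the adjusted p by limma reached 0.0481. After TAC on the control diet, Stc1 was the one gene of this list called, at 1.40 ± 0.31 (limma, adjusted p = 0.0455). That call was lost in all 6 fits that left out a library, with adjusted p by limma of 0.0582 to 0.120.

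Among receptors and adaptors, 5 of 9 fell and none rose with the diet in TAC hearts, beside the 17.7% of all genes called lower. Grb10, an adaptor that restrains the insulin and IGF1 receptors, fell from 3856 to 2129, by 0.85 ± 0.094 on the log2 scale (limma, adjusted p = 0.000904). Irs1, a main receptor substrate, differed by -0.95 ± 0.18, Sos1 by -0.48 ± 0.096 and Igf2r, which clears IGF2, by -0.44 ± 0.090. The calls of Sos1 and Igf2r were lost with GC and length trends removed, whereas those of Grb10 and Irs1 held. Grb10 also rose after TAC on the control diet by 0.69 ± 0.11, a call lost without control diet sham replicate 1 or 2 or control diet TAC replicate 3. It had an interaction of -0.82 ± 0.12 (limma, adjusted p = 0.00587), in the same direction as Igf1r. Grb14, a related adaptor, had an interaction of 0.54 ± 0.14 of the opposite sign, which passed (limma, adjusted p = 0.0345). The Grb14 call was lost with scaling to library totals (0.37; limma, adjusted p = 0.0851) and in 9 of 12 fits without a library, that is, in all but those without control diet sham replicate 2 or 3 or control diet TAC replicate 1.

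Of the 19 PI3K and AKT genes, 5 rose and 7 fell with the diet in TAC hearts, beside 16.5% and 17.7% of all genes. The kinase genes Pdpk1 (-0.44 ± 0.071) and Gsk3b (-0.51 ± 0.085) and the mTORC2 subunit gene Rictor (-0.53 ± 0.10) fell, and Eif4ebp1, a translational repressor that mTORC1 inactivates, rose by 0.37 ± 0.073. The 3 falls did not pass with GC and length trends removed (-0.15 for Pdpk1, -0.20 for Gsk3b and -0.16 for Rictor), and the rise of Eif4ebp1 did not with scaling to library totals or with 12 libraries scaled together. In the interaction Akt1, a kinase downstream of PI3K, had 0.51 ± 0.13 (limma, adjusted p = 0.0303) and Pik3ca, a catalytic PI3K subunit, -0.44 ± 0.12 (limma, adjusted p = 0.0424). With GC and length trends removed these were 0.32 (limma, adjusted p = 0.0868) and -0.020 (limma, adjusted p = 0.915). Of 12 fits without a library, 6 lost the call of Akt1 and 8 that of Pik3ca. Control diet TAC replicates 2 and 3, BCAA-free sham replicates 1 and 2 and BCAA-free TAC replicates 2 and 3 each ended both calls, and BCAA-free sham replicate 3 and BCAA-free TAC replicate 1 also that of Pik3ca. Akt1 did not pass with library totals either. After TAC on the BCAA-free diet 2 of 19 rose and 6 fell, among them Eif4ebp1 at 0.64 ± 0.11, Akt1 at 0.40 ± 0.080, Pik3ca at -0.33 ± 0.073 and Gsk3b at -0.35 ± 0.085. Of all genes 6.23% were called there, 3.34% higher and 2.89% lower. With GC and length trends removed, Akt1 was 0.15, Pik3ca -0.048 and Gsk3b -0.14, none of them called by limma. These 3 calls were also lost with 12 libraries scaled together and in 4 of 6 fits without a library each, namely without BCAA-free sham replicate 1 or 2, BCAA-free TAC replicate 3, and BCAA-free TAC replicate 2 (Akt1 and Pik3ca) or 1 (Gsk3b). The Eif4ebp1 call was lost with 12 libraries scaled together and without BCAA-free TAC replicate 3.

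Of the growth hormone axis, 1 of 6 changed with the diet in TAC hearts, beside 34.2% of all genes called (16.5% higher and 17.7% lower). This was Stat5a, a transcription factor downstream of the growth hormone receptor, at 0.52 ± 0.10. Of H19 and the Igf2 mRNA binding proteins, 1 of 3 tested rose and 1 fell, beside the same shares. H19, the imprinted neighbour of Igf2 that is expressed from the other parental allele, rose by 0.58 ± 0.14 beside the rise of Igf2 by 0.52. Igf2bp2, an RNA binding protein of Igf2 and other mRNAs, fell by 1.07 ± 0.21. The H19 call was lost with scaling to library totals and in 3 of 6 fits without a library.

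Across the 12 libraries, the genes whose scaled log2 counts were most like those of Igfbp2, among 10806 genes compared, were Cygb (Pearson's r 0.952), Notch4 (0.945), Pcolce2 (0.939), Hspb6 (0.938) and Susd2 (0.936). These points include the sham and TAC libraries, which lie apart for Igfbp2, and share library depth. Cygb had counts of 1768, 1862 and 1834 in control diet sham and of 2851, 3738 and 2615 in control diet TAC hearts. With the BCAA-free diet it had 2293, 2387 and 1998 in sham and 3165, 3472 and 3631 in TAC hearts. Within the family, r with Igfbp2 was 0.843 for Igfbp7 and 0.805 for Igfbp6, 0.624 for Igfbp5, 0.592 for Igfbp4, 0.483 for Igf1, 0.414 for Igf1r, 0.304 for Igfbp3 and -0.207 for Igf2.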

How the data were processed

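PolyA RNA-seq of 12 mouse heart samples in 4 groups of 3 was used. The submitters' processing notes name GRCm38, mm10, STAR 2.5.2b, Trimmomatic 0.36, DESeq2 and Subread 1.5.2, without their roles. The authors deposited 4 tables, each of 6 libraries, whose signal values are normalized read counts: reads per gene over a size factor that belongs to the library and the table. All values were whole multiples of 1 read (within 0.01) and a library's reads were the same in both its tables. The deposited log2 fold changes and p-values of the authors were not used. The lowest mean value of a listed gene was 7.25.

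Each comparison was fitted with limma 3.58.1 (R 4.3.3; statmod 1.5.0; intensity trend, robust variances) on log2(value + 1) within its table, for mean values of at least 10, with Benjamini-Hochberg adjustment over all genes tested; called means an adjusted p under 0.05. The interaction used the 12 libraries of the TAC tables joined. RPKM used recovered reads and merged exons of GENCODE M21, which matched 99.8% of IDs. Alternatives included edgeR 4.0.16 and DESeq2 1.42.0 on the recovered reads, whose calls numbered 549 and 2203 (control diet, TAC against sham), 985 and 1490 (BCAA-free diet, TAC against sham), 91 and 531 (diet in sham hearts), 5458 and 5591 (diet in TAC hearts) and 1392 and 2229 (interaction), and removal of trends over GC content and length by natural splines. The fit was tested on simulated data. All 9 members were named; of each pathway list, called genes up to 4 by smallest p (1 gene under this rule is not reported here); and the 5 genes most like Igfbp2 with a mean of at least 100 reads and no gene model name. The members and lists were chosen with earlier results of these data known. Same-numbered replicates did not deviate together, so no pairing was used.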

Additional observations from a re-analysis of the deposited data

Results flagged for a closer look

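The TAC difference of 3 genes differed between the diets by a test of the difference itself, the interaction of diet and surgery (limma). The value for Igf1 was -1.16 on the log2 scale, with TAC higher than sham in all libraries of the control diet and overlapping groups on the BCAA-free diet. For Igf1r it was -0.94 and for Igfbp5 -0.78, with the same pattern of groups. Only the Igf1r call held in every alternative and in all 12 fits without a library, where its adjusted p by limma reached 0.04997. Igf1 lost its call in 9 and Igfbp5 in 8 of those 12 fits, and both lost it with GC and length trends removed. The family was chosen on the TAC contrasts from which this difference is built, so the tests are not independent of that choice. No group had enough samples for a search for single outlying libraries.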

How the results depend on the processing

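With each library left out in turn, called genes ranged from 0 to 1061 for TAC on the control diet, 48 to 1211 for TAC without dietary BCAA, 6 to 475 for the diet in sham hearts, 3368 to 5271 for the diet in TAC hearts and 216 to 1733 for the interaction. Called members ranged from 0 to 3, 2 to 2, 0 to 2, 2 to 4 and 1 to 3 in the same order. The family was chosen on the 2 TAC contrasts, so nothing is read from their member counts, here or below. The count of 0 genes for TAC on the control diet arose without control diet TAC replicate 3. There limma gave 3372 genes at an unadjusted p under 0.05, and with all libraries edgeR called 549 and DESeq2 2203. For the diet in sham hearts log2 differences ranged from -0.21 to 0.049 for Igf1, -0.059 to 0.27 for Igfbp5 and -0.12 to 0.16 for Igfbp6. For the interaction they ranged from -0.19 to 0.30 for Igf2, -0.22 to 0.026 for Igfbp3, -0.13 to 0.11 for Igfbp4 and -0.33 to 0.21 for Igfbp7. DESeq2 on recovered reads called 2203, 1490, 531 and 2229 genes for TAC on each diet, the diet in sham hearts and the interaction (622, 977, 95 and 1314 with limma), and 6, 1 and 2 members in the first 3. Removing GC and length trends called 1482, 85, 374 and 628 genes, and 5 members for TAC on the control diet, 2 for the diet in sham hearts and 1 for the interaction. Fitting 12 libraries scaled together called 3026, 54 and 347 genes and 6, 1 and 2 members in the first 3 comparisons. Scaling to library totals called 1416 genes and 5 members for TAC on the control diet, and 2 members each for the diet in sham and TAC hearts. Higher calls made up 73.0%, 53.6%, 40% and 48.2% of calls for TAC on each diet and the diet in sham and TAC hearts and 56.8% for the interaction; with library totals they made up 89.5%, 43.4%, 53.6%, 27.8% and 20.9%, which moved the median of all genes to 0.14, -0.019, 0.039, -0.13 and -0.20, and with GC and length trends removed 43.0%, 90.6%, 42.8%, 59.1% and 78.2%. A mean value of at least 100 excluded Igfbp2 by construction and left 1, 1 and 0 members for TAC on each diet and the diet in sham hearts, and 52 genes in the last (1871 at an unadjusted p under 0.05). A pseudocount of 10 gave Igfbp2 3.24 and 2.49 after TAC and called 2 members for the diet in sham hearts. With a replicate block, 1 member was called after TAC without dietary BCAA and 143 genes for the diet in sham hearts. The calls of the Igf1 interaction and of Igfbp3 in TAC hearts were lost with that block. Deviations of same-numbered libraries correlated at -0.18 to 0.098, and the labels do not say what the number stands for. The sign turned for Igfbp6 in sham hearts (-0.0059 with DESeq2, -0.0067 with edgeR), for Igf1r in TAC hearts (0.049 with GC and length trends removed) and for the Igf2 interaction (0.056, 0.063 and 0.041 with DESeq2, edgeR and trends removed). Beyond the removal or addition of genes and samples, the cause of these shifts was not tested.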
